A study of Mus musculus with 6 samples.

Results

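The genes described here are those of cholesterol supply and disposal in the heart: the receptor ligase Mylip, 2 lipoprotein receptors, the 2 liver X receptors (LXR), the 2 cholesterol efflux pumps, 5 genes of sterol sensing, 18 enzymes of cholesterol synthesis and 1 sterol carrier. They were chosen by name, as the 31 rows of the deposited gene tables whose symbol equals a listed name, out of 55487 genes, and all 31 were found. Left ventricles of male C57BL/6 mice were profiled by bulk RNA sequencing. The ET group (3 libraries) was kept for 10 days on a 5% ethanol diet and then dosed by 1 ethanol gavage, and the CONT group (3 libraries) was fed an isocaloric control diet with 1 gavage of maltose-dextrin. All mice were wild type, entered at an age of 8 weeks, and gave tissue 9 h after the gavage. The labels follow the NIAAA model of chronic feeding with a binge, and do not say that each library came from a separate mouse, so any p-value given is relative to the spread among the libraries, which may be technical.

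A cell takes up cholesterol with lipoprotein particles or makes it from acetyl-CoA. When sterols in the endoplasmic reticulum are low, Scap carries the SREBP transcription factors (from Srebf1 and Srebf2) to the Golgi for cleavage, and they then switch on the enzymes of synthesis and of lipoprotein uptake; when sterols are high, the Insig proteins hold Scap back. Oxidised sterols activate the LXR factors (Nr1h3 and Nr1h2), which switch on the efflux pumps Abca1 and Abcg1 and the ligase Mylip, whose product marks lipoprotein receptors for degradation.

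Levels are given as counts scaled to library size with TMM factors (CPM) when libraries are compared, and as TPM, the authors' unit corrected for transcript length, when genes are compared. The libraries held from 28838386 to 37762233 expected counts, and 15727 genes had enough counts to be tested by edgeR (quasi-likelihood). After Benjamini-Hochberg adjustment 0 of them were under 0.05 and the smallest value was 0.427, while 1360 genes had an unadjusted p under 0.05, DESeq2 called 184 (1.17%) and limma-voom 0, with 1277 at an unadjusted p under 0.05. Marker sums set ET replicate 1 apart. Its summed TPM over 6 atrial markers was 14472, against 486 and 82.9 in the other ET libraries and 149, 89.1 and 2113 in CONT replicates 1 to 3. Its fibroblast sum (7 markers) was 933 TPM, against 359 and 266 in the other ET libraries and 244 to 296 in CONT, and its macrophage sum (7 markers) was 440 TPM, against 167 and 146 in the other ET libraries and 156 to 169 in CONT. ET replicate 3 held the highest hepatocyte sum (7 markers), at 58.98 TPM. That sum was 32.2 and 1.92 TPM in ET replicates 1 and 2, and 3.39 to 9.46 TPM in CONT. The neutrophil sum (5 markers) was also highest in ET replicate 3, at 91.7 TPM. It was 16.5 and 4.35 TPM in ET replicates 1 and 2, and 1.44 to 13.7 TPM in CONT. Serpina1a and Fgb of the hepatocyte list and Ly6g and Camp of the neutrophil list were at 0 in some library. The defining cardiomyocyte markers were present in every library, with sums of 44722, 55072 and 47367 TPM in ET, all below the 57891, 60894 and 59307 TPM in CONT. In bulk tissue, fewer cells of a type and less RNA per cell cannot be told apart.

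In the ethanol-fed ventricles the mRNAs of the ligase Mylip and of the efflux pump Abca1 were higher in all 3 libraries than in any CONT library, by 0.90 ± 0.13 and 0.70 ± 0.14 on the log2 scale (SE), while the 18 enzymes of cholesterol synthesis had a median of -0.04. All 31 genes passed the filter on low counts. None passed the test over all genes, where the lowest adjusted p among them was 0.427. At an unadjusted p under 0.05 there were 5 of 31 (16.1%), against a background of 8.65% of all genes tested: Mylip, Abca1, Abcg1 and Lrp1 were higher in ET (background 4.19%) and Dhcr7 was lower (background 4.46%). The 31 genes were chosen with earlier results of these data known, so these shares describe them and are no test. In CPM, ET and CONT were fully separated in 4 of 31 (12.9%), against 15.2% of all genes, with 3 of 31 higher (background 6.89%) and 1 of 31 lower (background 8.36%). The share of separated genes was thus near the background. Of the 31 genes 16 were higher and 15 lower in ET, with a median log2 fold change of 0.06, against 0.01 over all genes tested. Without ET replicate 1 and CONT replicate 3, the libraries of the highest atrial sums, 12 of 31 had an unadjusted p under 0.05, against 27.7% of all genes, and 2 (Mylip and Abca1) an adjusted p under 0.05, against 5.27% of all genes. That fit cannot tell the groups apart from the library sets described below with Mylip.

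**Figure D1:**
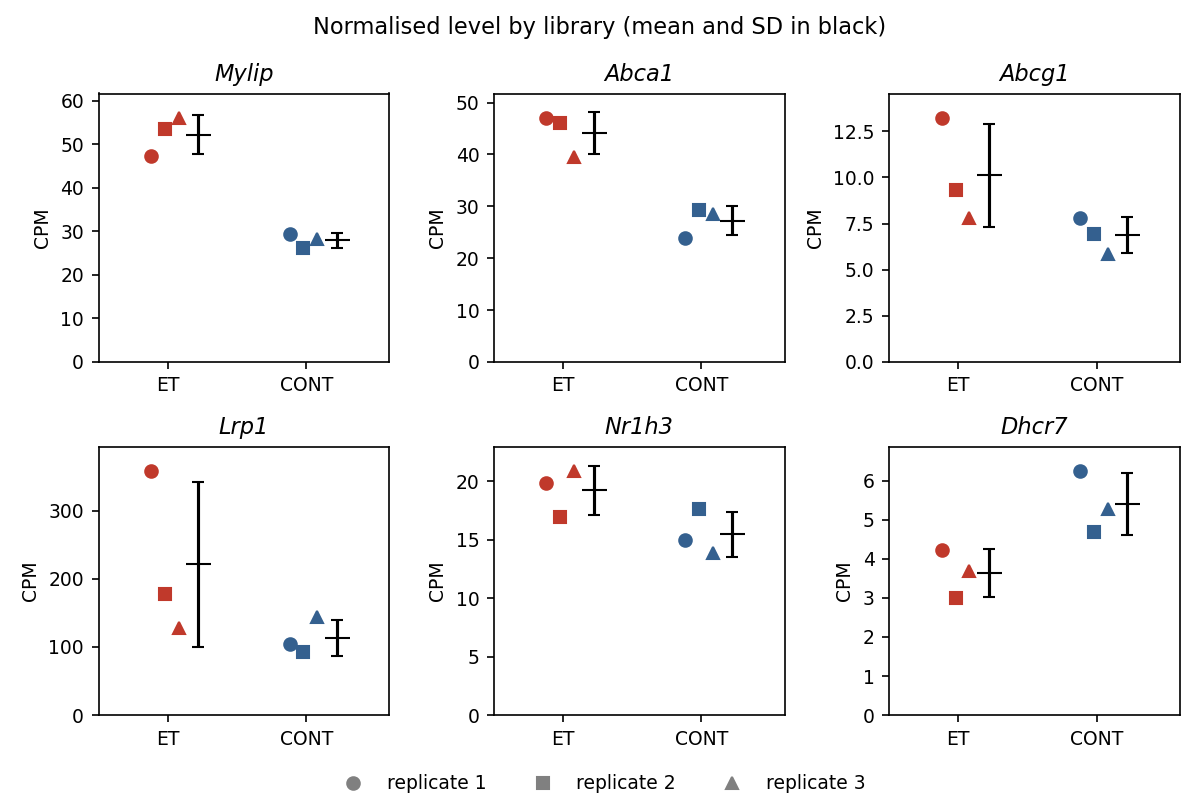
CPM of 6 genes in each library, with the ET libraries in red left of the CONT libraries in blue, marker shapes for replicates 1 to 3, and the mean with its SD (n = 3) in black. The ET points of Mylip and Abca1 lie above all CONT points, those of Lrp1 are spread by ET replicate 1, and those of Dhcr7 lie below all CONT points.

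Mylip (ENSMUSG00000038175, GRCm38 chr13:45389742-45412022, plus strand) encodes the ubiquitin ligase also called Idol, which marks lipoprotein receptors, those of Vldlr and Lrp8 among them, for degradation. It measured 47.2, 53.4 and 56.0 CPM in ET replicates 1 to 3, against 29.5, 26.1 and 28.1 CPM in CONT replicates 1 to 3. The lowest ET library was thus above the highest CONT library, and each group varied little, with means of 52.2 ± 4.54 and 27.9 ± 1.70 CPM (SD, n = 3 each). Its unadjusted p of 0.000209 in edgeR ranked 5 among the 15727 genes, with an adjusted p of 0.427. The libraries were split into sets at 0 of the first principal component of the effective gene lengths in the files, which held 43.8% of the variance. ET replicate 1 fell beside CONT replicates 1 and 2, and ET replicates 2 and 3 beside CONT replicate 3. ET replicate 1 (-0.19) and CONT replicate 3 (0.16) lay nearest the cut, so the sets are not clearly separate. Within these sets ET exceeded CONT by 0.76 and 0.96 (log2), where each set has a single library of 1 group, so neither value has a replicate check, here and below. Per length Mylip was at 19.3, 19.2 and 17.97 TPM in ET libraries, against 9.05, 7.68 and 9.80 TPM in CONT libraries, and it ranked 3 in ET and 7 in CONT among the 31 genes. DESeq2, which called 2 of the 31 genes (Mylip and Abca1, against 1.17% of all genes), gave an adjusted p of 4.28e-06 for Mylip, and over all alternatives tried its adjusted p reached from that value to 0.999.

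The Mylip promoter is shown because this gene had the lowest p of the 31. The window below runs from 250 bases before to 50 after the start site (RefSeq, GRCm38.p6, chr13:45389492-45389791, plus strand), and capitals mark the CCAAT box, a short element found in many promoters of sterol genes, which reads ATTGG on this strand.
Mylip: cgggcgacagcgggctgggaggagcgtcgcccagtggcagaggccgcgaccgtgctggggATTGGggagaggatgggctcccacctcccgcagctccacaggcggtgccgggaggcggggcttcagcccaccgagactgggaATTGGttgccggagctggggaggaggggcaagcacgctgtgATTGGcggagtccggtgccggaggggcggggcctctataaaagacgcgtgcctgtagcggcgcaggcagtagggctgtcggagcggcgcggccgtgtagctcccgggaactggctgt
It holds 3 CCAAT boxes, at -190, -108 and -67 from the start site. Searched on both strands, CCAAT was found in 19 of the 25 genes (of 31) that matched a window by symbol, against 41.1% of 27025 genes with one. The LXR repeat described below with Abca1 was not among the letters of this window.

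Vldlr and Lrp8, whose products the Mylip protein acts on, had overlapping groups. Vldlr, a receptor for triglyceride-rich lipoproteins, measured 119, 241 and 326 CPM in ET, against 135, 158 and 189 CPM in CONT. ET replicates 2 and 3 were above every CONT library and ET replicate 1 below all of them, and the log2 fold change of 0.51 ± 0.36 had an adjusted p of 0.662 in edgeR. In a fit of the other 4 libraries, without ET replicate 1 and CONT replicate 3, where group and library set can no longer be told apart, its value was 0.97 with an adjusted p of 0.040. With all libraries and a term for the library sets, the value of Vldlr was 0.14 ± 0.26 (adjusted p 0.859 in edgeR). Its log2 ratio was -0.31 in the set with ET replicate 1 and 0.59 in the other. Lrp8, the apolipoprotein E receptor of that family, was at 3.9995 CPM in ET replicate 1 and at 0.617 and 0.260 CPM in the other ET libraries, against 0.684, 0.300 and 1.54 CPM in CONT, so that its log2 fold change of 0.95 ± 1.01 turned to -0.92 without ET replicate 1. Per length the mean of Mylip was 18.8 ± 0.751 TPM in ET and 8.84 ± 1.07 TPM in CONT, below that of Vldlr, at 37.8 ± 14.2 TPM in ET and 21.2 ± 5.50 TPM in CONT (SD, n = 3 each).

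Among the other receptor genes, Lrp1, a large endocytic receptor for apolipoprotein E particles and many other ligands (ENSMUSG00000040249, chr10:127538161-127621148, minus strand), had the largest fold change of the 31 genes, and its size depended on ET replicate 1. It measured 358, 178 and 128 CPM in ET replicates 1 to 3, against 105, 92.3 and 143 CPM in CONT replicates 1 to 3. Only ET replicates 1 and 2 were above all CONT libraries, and the groups overlapped. The log2 fold change was 0.96 ± 0.39 (unadjusted p 0.0434, adjusted p 0.569 in edgeR), and 0.44 without ET replicate 1. Without ET replicate 1 and CONT replicate 3 together, where group and library set coincide, it was 0.66 ± 0.19 (adjusted p 0.0841 in edgeR). Within the library sets the log2 ratio was 1.86 in the set with ET replicate 1 and 0.09 in the other. The fibroblast and macrophage marker sums were also highest in ET replicate 1, and their part in the Lrp1 value was not tested. Scarb1, the receptor for selective uptake from high-density lipoprotein, measured 24.1, 26.8 and 26.7 CPM in ET, against 35.6, 28.8 and 23.6 CPM in CONT. Its ET libraries lay within the CONT range (log2 fold change -0.18 ± 0.17, adjusted p 0.739).

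Of the LXR genes, Nr1h3 (LXRα, chr2:91184061-91202834, minus strand) had the higher fold change and Nr1h2 (LXRβ) the higher level. Nr1h3 measured 19.9, 16.9 and 20.9 CPM in ET, against 14.9, 17.6 and 13.9 CPM in CONT. ET replicate 2 fell below CONT replicate 2, and the log2 fold change of 0.31 ± 0.15 had an unadjusted p of 0.0705 and an adjusted p of 0.578 in edgeR. Per length the groups of Nr1h3 did not overlap, with 14.4, 11.4 and 12.7 TPM in ET, against 8.02, 9.03 and 8.94 TPM in CONT. Nr1h2 measured 39.9, 40.2 and 39.4 CPM in ET, against 42.6, 41.7 and 39.3 CPM in CONT, a log2 fold change of -0.05 ± 0.11. It was the more abundant of the pair per length, at 27.3 ± 3.56 TPM in ET and 25.1 ± 1.27 TPM in CONT, against 12.8 ± 1.53 and 8.66 ± 0.559 TPM for Nr1h3 (SD, n = 3 each).

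Both efflux pumps were higher in all 3 ET libraries than in any CONT library. Abca1 passes cholesterol to lipid-poor apolipoprotein A-I (ENSMUSG00000015243, chr4:53030787-53159895, minus strand). It measured 47.0, 46.0 and 39.6 CPM in ET, against 23.97, 29.2 and 28.4 CPM in CONT, a log2 fold change of 0.70 ± 0.14 with an unadjusted p of 0.00153 that ranked 54 among all genes. Within the library sets the log2 ratio was 0.82 and 0.59, and leaving out each library gave 0.62 to 0.77. DESeq2 gave Abca1 an adjusted p of 0.00343, within a range of 0.00343 to 0.999 over the alternatives. Macrophages also express Abca1, and the macrophage marker sum was 440, 167 and 146 TPM in ET replicates 1 to 3, against 156 to 169 TPM in CONT. The part of those cells in the Abca1 value was not tested.

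Abcg1, the pump that passes cholesterol to mature high-density lipoprotein (ENSMUSG00000024030, chr17:31057675-31117988, plus strand), measured 13.2, 9.32 and 7.81 CPM in ET, against 7.80, 6.93 and 5.86 CPM in CONT. The gap between the groups was narrow, since the lowest ET library was barely above the highest CONT library. The log2 fold change was 0.56 ± 0.23 (unadjusted p 0.044, adjusted p 0.569 in edgeR), and 0.34 without ET replicate 1, the library of the highest macrophage and fibroblast sums. The part of those cells was not tested. Per length Abca1 ranked 16 in ET and 18 in CONT among the 31 genes, and Abcg1 ranked 21 and 26. Mean levels were 4.87 ± 0.908 TPM for Abca1 and 2.22 ± 0.596 TPM for Abcg1 in ET, against 2.59 ± 0.468 and 1.40 ± 0.277 TPM in CONT.

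The promoter windows of Abca1 and Srebf1 are shown because they are the only ones among the 25 genes with a window that hold a loose LXR repeat, GGTNA followed after 5 bases by GGTCA, a pair of motifs spaced as LXR and its partner RXR bind them. The repeat was found in 61 of 27025 genes and in 0.207% of 32851 windows, on either strand. The windows are RefSeq's on GRCm38.p6, chr4:53159846-53160145 for Abca1 and chr11:60210422-60210721 for Srebf1, each read on the gene's own minus strand, with the repeat in capitals.
Abca1: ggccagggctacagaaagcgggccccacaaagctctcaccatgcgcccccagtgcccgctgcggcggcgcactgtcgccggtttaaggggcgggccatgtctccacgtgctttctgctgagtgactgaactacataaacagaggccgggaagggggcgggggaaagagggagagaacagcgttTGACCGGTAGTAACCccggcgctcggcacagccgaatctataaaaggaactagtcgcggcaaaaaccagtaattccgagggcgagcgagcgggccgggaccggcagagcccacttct
Srebf1: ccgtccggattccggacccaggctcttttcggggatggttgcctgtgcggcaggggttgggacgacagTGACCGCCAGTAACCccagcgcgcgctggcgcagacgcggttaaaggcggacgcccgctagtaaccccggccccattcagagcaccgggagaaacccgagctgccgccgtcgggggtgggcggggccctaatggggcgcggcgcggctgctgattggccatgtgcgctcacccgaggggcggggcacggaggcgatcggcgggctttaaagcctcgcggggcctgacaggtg
The match begins at -67 from the start site in Abca1 and at -182 in Srebf1. The strict repeat, AGGTCA followed after 4 bases by AGGTCA, was in 0 of the 25 genes with a window. A match of letters describes the window and is not evidence of binding.

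The microRNA miR-33-5p, encoded within Srebf2 (chr15:82198127-82198147, plus strand), is known in mice to restrain Abca1 and Abcg1, which is why its sequence and sites are shown. Capitals mark the seed (bases 2 to 8) in the microRNA and the matching CAATGCA in the target stretches, which are taken from 3′ untranslated regions of GENCODE vM21 transcripts.
mmu-miR-33-5p: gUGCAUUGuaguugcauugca
Abca1: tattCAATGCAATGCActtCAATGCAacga
Abcg1: gcaacgCAATGCAacgCAATGCAgacagt
Nsdhl: cagtgatggtgCAATGCAatggtacagtg
The site was found in the 3′ untranslated regions of 3 of the 31 genes, against 7.02% of 21020 genes. Abca1 has 3 copies, of which the leading pair share bases, Abcg1 has 2 and Nsdhl has 1. The groups overlapped in Nsdhl (3.39, 2.91 and 3.94 CPM in ET, against 2.96, 3.67 and 2.93 CPM in CONT) and in the host gene Srebf2, whose values follow.

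The 5 genes of sterol sensing had a median log2 fold change of 0.28, and 4 of 5 were higher in ET, with 0 of 5 at an unadjusted p under 0.05. Srebf1, whose SREBP-1c form drives fatty acid synthesis and is itself a target of LXR, measured 25.4, 46.3 and 32.9 CPM in ET, against 28.4, 27.0 and 27.4 CPM in CONT. ET replicate 2 was the highest library and ET replicate 1 the lowest (log2 fold change 0.34 ± 0.22, adjusted p 0.645). Srebf2, the factor that favours cholesterol synthesis, measured 26.7, 18.4 and 17.6 CPM in ET, against 22.5, 19.7 and 22.2 CPM in CONT, a log2 fold change of -0.04 ± 0.19 with overlapping groups. Scap, the escort of the SREBP factors, had 26.3, 34.4 and 34.8 CPM in ET, against 22.6, 25.7 and 30.1 CPM in CONT (log2 fold change 0.28 ± 0.17). Insig1, a retention protein that is itself an SREBP target, had 14.5, 20.8 and 24.3 CPM in ET, against 16.01, 13.4 and 16.5 CPM in CONT (0.37 ± 0.21). Insig2, the retention protein that SREBP does not drive, had 22.2, 27.6 and 28.6 CPM in ET, against 19.4, 21.05 and 25.3 CPM in CONT (0.25 ± 0.16). In Insig1 the first ET library lay among the CONT libraries, while ET replicates 2 and 3 were above them.

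Per length, Scap, Insig1 and Insig2 of the sensing genes were separated between the groups, while Srebf1 and Srebf2 overlapped. In TPM, the ET libraries were above all CONT libraries in 7 of the 30 genes with a mean of at least 0.5 TPM, against a background of 13% of 14114 such genes, and below them in 0 of 30, against 3.22%: Mylip, Nr1h3, Abca1, Abcg1, Scap, Insig1 and Insig2. On log2(TPM + 1) with limma-trend, 6 of 30 had an unadjusted p under 0.05, all higher in ET, against 9.87% of genes (8.18% higher), and 0 passed adjustment. The TPM scale moved the median of all genes by 0.13 (log2) towards ET, so values on it are partly that shift. Insig2 had 14.2, 16.8 and 12.2 TPM in ET, against 6.98, 7.71 and 11.2 TPM in CONT, a difference of 0.69 ± 0.21 on the log2(TPM + 1) scale (unadjusted p 0.012, adjusted p 0.496 with limma-trend). Beyond the shift that difference was 0.56, for which no test was run. Scap had 8.93, 10.7 and 10.4 TPM in ET, against 5.58, 6.24 and 8.15 TPM in CONT.

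TPM divides reads by an effective length, which RSEM sets for each gene in each library from its estimated mix of transcripts. That length was shorter in every ET library than in any CONT library for Insig2, at 1895, 1764 and 2246 bases in ET, against 2554, 2403 and 2354 bases in CONT. The same held for Scap and Dhcr7, whereas the length of Lrp1 was longer in ET. These were 3 shorter and 1 longer of the 22 genes with enough reads, against 7.19% and 5.36% of 9657 genes. Mylip kept a length near 2955 to 2991 bases in all libraries. Its difference was 0.90 in CPM and 1.02 on the log2(TPM + 1) scale, which holds the shift of 0.13.

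**Figure D2:**
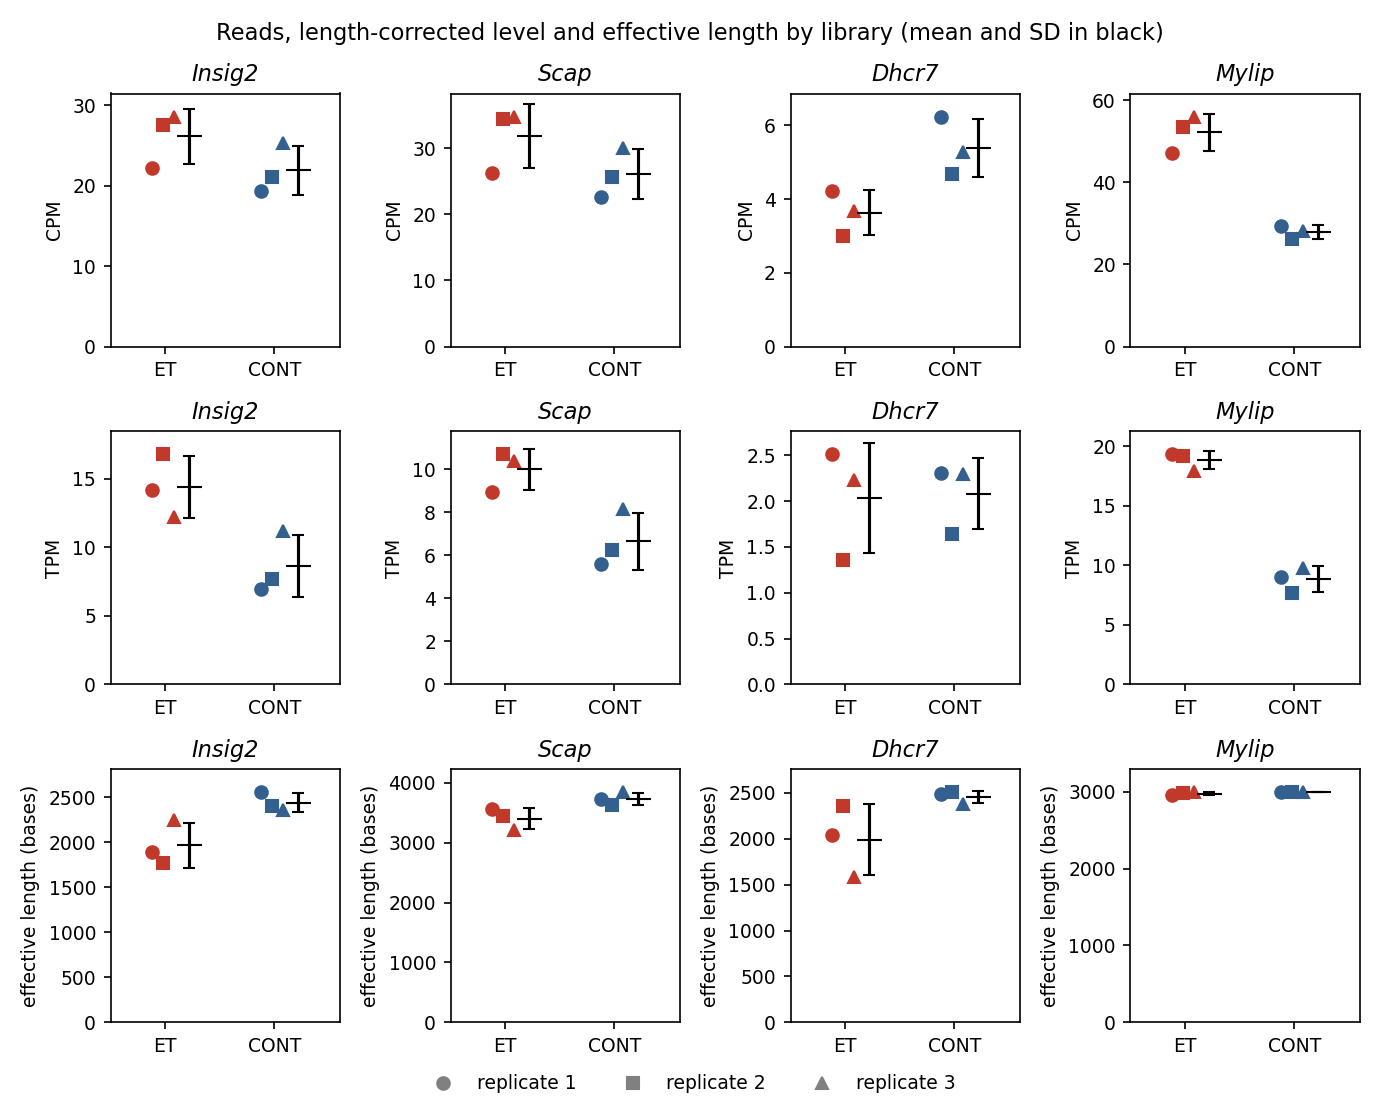
CPM (top row), TPM (middle row) and effective length in bases (bottom row) of Insig2, Scap, Dhcr7 and Mylip, with ET libraries in red left of CONT libraries in blue, marker shapes for replicates, and mean and SD (n = 3) in black. The groups of Insig2 and Scap overlap in CPM and are separated in TPM. Those of Dhcr7 are separated in CPM and overlap in TPM. Those of Mylip, whose length hardly varies, are separated in both.

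The enzymes of cholesterol synthesis showed no common direction in the edgeR fit of counts. Per length, only Mvd, Sqle, Hsd17b7 and Dhcr7 had a lower mean TPM in ET, on a scale that holds the shift of 0.13 given above. In edgeR, 7 of the 18 enzymes were higher and 11 lower in ET, with log2 fold changes from -0.70 to 0.35, and 1 had an unadjusted p under 0.05. In the mevalonate arm, which builds isoprene units from acetyl-CoA, 3 of 7 were higher and 0 of 7 reached that p, with a median of -0.03. Acat2, the cytosolic thiolase that joins acetyl-CoA units, had 4.67, 2.29 and 2.93 CPM in ET, against 2.68, 2.77 and 3.25 CPM in CONT (log2 fold change 0.18 ± 0.30), with ET replicate 1 alone above the CONT range. Hmgcs1, the synthase that makes HMG-CoA, had 14.6, 16.6 and 20.05 CPM in ET, against 15.1, 15.2 and 17.8 CPM in CONT (0.09 ± 0.16). The kinases Mvk and Pmvk, which phosphorylate mevalonate in turn, had -0.08 ± 0.18 and -0.03 ± 0.24, and the decarboxylase Mvd had -0.18 ± 0.29. Idi1, the isomerase of isopentenyl diphosphate, had the highest value of the arm at 0.35 ± 0.27 (3.9995, 3.32 and 5.79 CPM in ET, against 3.06, 3.15 and 4.08 CPM in CONT), and Fdps, which makes farnesyl diphosphate, had -0.05 ± 0.23.

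Hmgcs1 is a textbook SREBP target, and its window (chr13:119690101-119690400, plus strand, RefSeq on GRCm38.p6) is shown as the only 1 of the 25 that holds the sterol regulatory element searched for, TCACNCCAC, in capitals.
Hmgcs1: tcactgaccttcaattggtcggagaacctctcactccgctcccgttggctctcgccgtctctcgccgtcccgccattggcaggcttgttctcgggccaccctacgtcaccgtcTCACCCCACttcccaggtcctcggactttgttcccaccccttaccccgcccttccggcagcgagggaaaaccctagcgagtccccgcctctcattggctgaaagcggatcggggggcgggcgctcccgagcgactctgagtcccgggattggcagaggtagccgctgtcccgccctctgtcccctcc
The element begins at -137 from the start site and was found in 1.24% of 32851 windows on either strand.

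In the sterol arm, which turns farnesyl units into cholesterol, 4 of 11 enzymes were higher and 7 lower, with a median of -0.05. Dhcr7, the reductase of the last step of the Kandutsch-Russell branch (ENSMUSG00000058454, chr7:143823145-143848410, plus strand), was the only one at an unadjusted p under 0.05. It measured 4.21, 2.998 and 3.68 CPM in ET, against 6.24, 4.68 and 5.27 CPM in CONT, and every ET library was below every CONT library. The log2 fold change was -0.57 ± 0.21 (unadjusted p 0.0301, adjusted p 0.536 in edgeR). Per length the groups overlapped, with 2.51, 1.36 and 2.23 TPM in ET, against 2.31, 1.64 and 2.30 TPM in CONT, and the difference was -0.04 on the log2(TPM + 1) scale, or -0.17 beyond the shift of that scale. The effective length of Dhcr7 was 2036, 2353 and 1580 bases in ET, against 2485, 2505 and 2379 bases in CONT, and thus shorter in every ET library. Within ET the library of the lowest CPM, replicate 2, had the longest length. The part of length in the lower read count was not tested.

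Sqle, squalene epoxidase and a rate-limiting step of the arm, was the least abundant of the 31 genes. It had 33, 16 and 11 expected counts in ET, against 36, 23 and 32 in CONT, or 0.880, 0.470 and 0.358 CPM in ET and 0.985, 0.861 and 0.947 CPM in CONT. ET replicates 2 and 3 were below all CONT libraries and ET replicate 1 was among them (log2 fold change -0.70 ± 0.41, adjusted p 0.623). Fdft1, squalene synthase, ranged over 16.9, 35.3 and 57.9 CPM in ET, against 26.7, 28.98 and 36.9 CPM in CONT. The ET libraries thus held both the lowest and the highest value, and its log2 fold change was 0.25 ± 0.41. Hsd17b7, a keto-reductase of sterol demethylation, varied most, with 2.61, 7.29 and 6.44 CPM in ET, against 4.32, 3.52 and 11.1 CPM in CONT (-0.21 ± 0.53), where CONT replicate 3 was the highest and ET replicate 1 the lowest library. The fold changes of the other enzymes were smaller than their SE: Lss, lanosterol synthase, at 0.27 ± 0.28, the lanosterol demethylase Cyp51 at -0.01 ± 0.17, the sterol reductase Tm7sf2 at -0.23 ± 0.36 and the methylsterol oxidase Msmo1 at -0.10 ± 0.20. The dehydrogenase Nsdhl stood at 0.10 ± 0.22, the isomerase Ebp at 0.06 ± 0.14 and the desaturase Sc5d at -0.05 ± 0.17. Stard4, a soluble carrier that moves cholesterol between membranes, measured 6.53, 6.11 and 5.47 CPM in ET, against 9.19, 7.45 and 4.64 CPM in CONT. Its ET libraries lay within the CONT range (-0.23 ± 0.26, adjusted p 0.776).

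**Figure D3:**
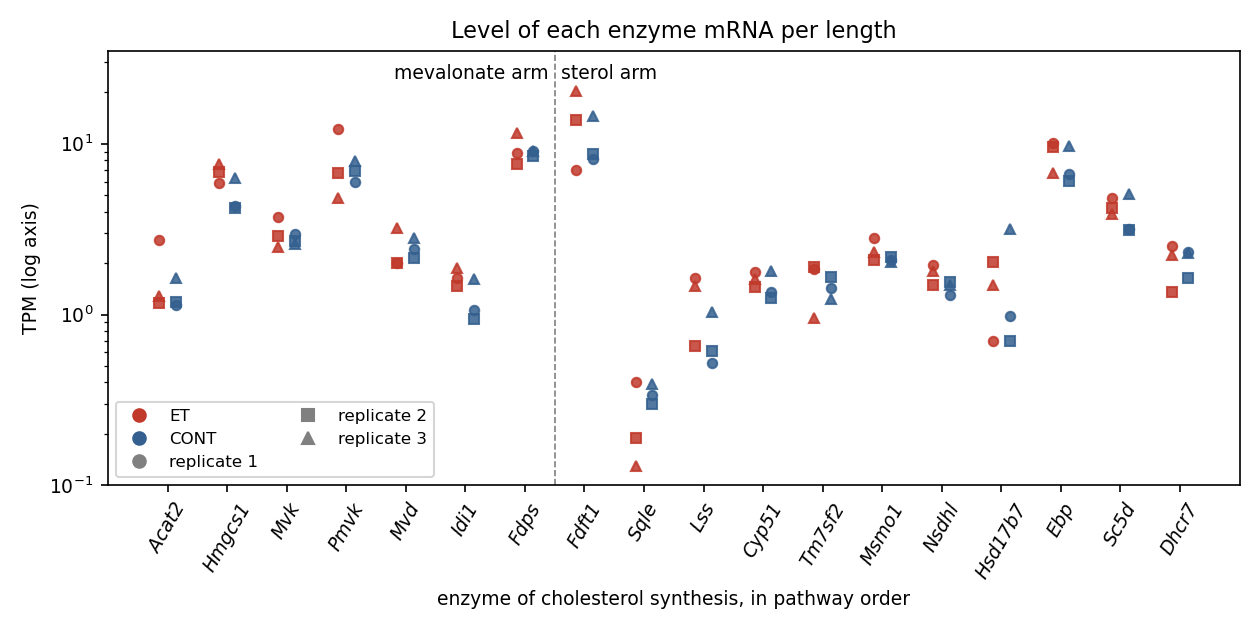
TPM (log axis) of the 18 enzymes of cholesterol synthesis in pathway order, with ET libraries in red left of CONT libraries in blue and marker shapes for replicates 1 to 3. The groups lie on each other for most enzymes, and Sqle is the lowest in both groups.

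Within the pathway the enzymes differed far more from each other than between the groups. Per length, mean levels ran from 0.240 TPM for Sqle to 13.6 TPM for Fdft1 in ET, and from 0.343 to 10.5 TPM for the same genes in CONT. Summed over the 18 enzymes the libraries held 72.6, 67.1 and 75.6 TPM in ET, against 55.2, 54.3 and 74.6 TPM in CONT, and 117, 129 and 167 CPM in ET, against 126, 126 and 148 CPM in CONT. CONT replicate 3 thus stood with the ET libraries in summed TPM. Of all 31 genes Lrp1 was the most abundant per length, at 82.5 ± 56.1 TPM in ET and 42.5 ± 9.56 TPM in CONT, with Nr1h2 next in both groups.

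**Figure D4:**
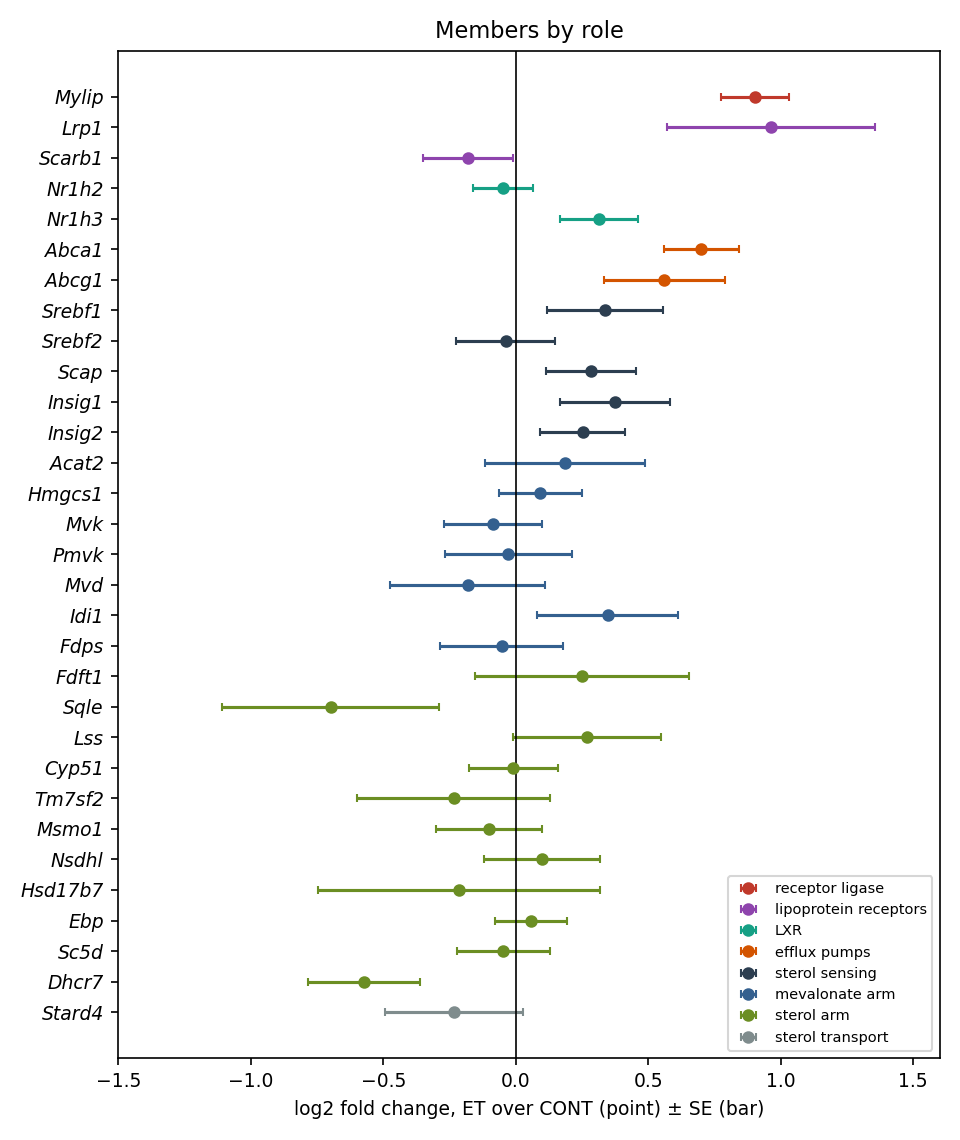
Log2 fold change of each of the 31 genes, ET over CONT (points, edgeR), with its SE as a bar, grouped and coloured by role. Mylip, Abca1, Abcg1 and Lrp1 stand to the right of 0, Dhcr7 and Sqle to the left, and most synthesis enzymes within their SE of 0.

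**Figure D5:**
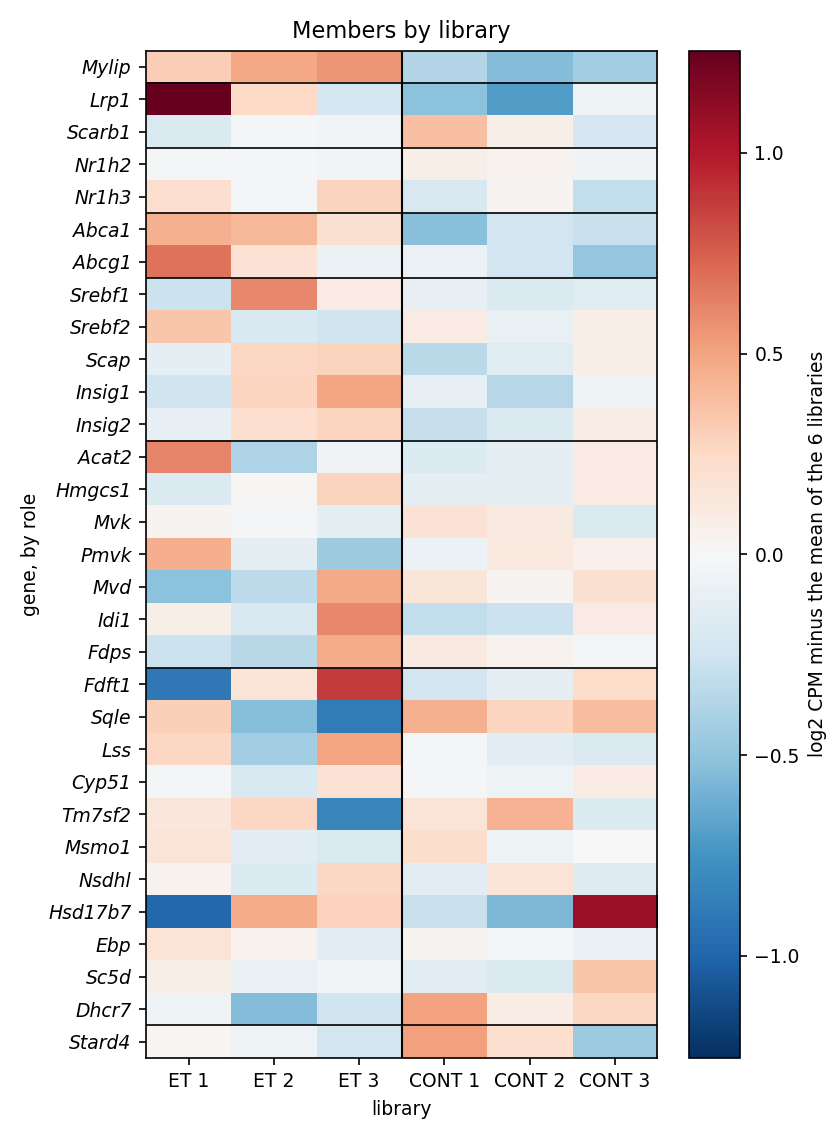
Log2 CPM of each gene in each library minus its mean over the 6 libraries (red above, blue below), genes by role in rows, ET libraries left and CONT libraries right. Mylip and Abca1 are red in all 3 ET and blue in all 3 CONT libraries, ET 1 is the highest library in Lrp1 and CONT 3 in Hsd17b7, and in Fdft1 the ET libraries hold both extremes.

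Of 86 other genes of the pathway, 77 were tested, 0 passed an adjusted p of 0.05, 3 had an unadjusted p under 0.05 (3.90%, against 8.65% of all genes), and their median log2 fold change was 0.12. Among ligase cofactors and relatives (8 tested, 6 higher), Rdx, the membrane-cytoskeleton linker radixin that shares a FERM domain with Mylip, had 92.4, 90.3 and 96.3 CPM in ET, against 59.3, 62.3 and 77.1 CPM in CONT. All its ET libraries were above CONT (log2 fold change 0.49 ± 0.15, unadjusted p 0.0149, adjusted p 0.515), and Usp8, a deubiquitinase of endosomal sorting, had 0.19 ± 0.14. Lrpap1, the chaperone of lipoprotein receptors, had 0.15 ± 0.12. Of 18 tested LXR partners and targets 10 were higher and 8 lower, with a median of 0.06. Nr0b2, the small heterodimer partner, had 3.25, 4.85 and 5.24 CPM in ET, against 5.61, 7.15 and 7.397 CPM in CONT, and every ET library was below CONT (-0.60 ± 0.23, unadjusted p 0.0374, adjusted p 0.559). Pltp, the phospholipid transfer protein and a known LXR target, had 32.5, 19.8 and 22.2 CPM in ET, against 43.1, 37.0 and 26.2 CPM in CONT (-0.51 ± 0.25), and 19.3% of its exon bases overlap a gene on the opposite strand.

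Of 11 further enzymes tested 5 were higher, and the lowest p values were those of Ch25h, which makes 25-hydroxycholesterol (0.7999, 0.852 and 1.37 CPM in ET, against 0.821, 0.449 and 0.296 CPM in CONT, 0.93 ± 0.47), and of Pdss1, a subunit of the synthase of the coenzyme Q side chain (-0.48 ± 0.24). Of 15 further sensing and degradation genes 13 were higher, the median being 0.08. The lowest p of these 15 was that of Nploc4, a cofactor that extracts proteins from the endoplasmic reticulum (0.44 ± 0.26). Among 18 transport and storage genes 13 were higher, with Lipa, the lysosomal lipase that frees cholesterol from its esters, at 30.6, 33.3 and 22.7 CPM in ET, against 25.3, 18.7 and 18.8 CPM in CONT (0.46 ± 0.20, unadjusted p 0.0495, adjusted p 0.572). ET replicate 3 of Lipa fell below CONT replicate 1. Npc1, the lysosomal cholesterol exporter, had 0.32 ± 0.17.

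Reads of some of these genes are shared with others. Expected counts differed from a whole number by over 0.005 in some library for 10 of the 31 genes, against 44.5% of all genes tested, and exons of Fdps (26.7% of bases, Gm43738) and Tm7sf2 (12.1%, Vps51) overlap a gene on the same strand. Exons of Fdft1 (18.3%, Ctsb), Scap (13.2%, 5830462I19Rik), Hmgcs1 (12.1%, Gm48342) and Idi1 (9.22%, Gm48574) overlap a gene on the opposite strand, and the use of strand in counting is not given in the sources used here.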

How the data were processed

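Left ventricular RNA of 3 ET and 3 CONT libraries (1000 ng, 75 bp paired reads, per the labels' protocols) was processed on mm10 with STAR 2.7.0f as aligner and RSEM 1.2.31 for quantification, per the submitters' processing notes. Annotation release and strand setting were not given in the sources used here. The authors deposited expected counts per gene, not normalized, and TPM and FPKM values per library, per the file headers. Library totals were 28838386 to 37762233, and 27.8% to 31.9% of counts were mitochondrially encoded. Expected counts were rounded, filtered with filterByExpr (minimum count 10, minimum total count 15), scaled by TMM and fitted with edgeR 4.0.16 (robust quasi-likelihood, two-sided, no covariate, R 4.3.3), with adjustment over all genes tested. The SE is the absolute log2 fold change over the root of F. Effective length was computed from expected counts divided by FPKM and by the total of the library, for genes with at least 100 counts and 1 FPKM; library sets come from its first principal component. DESeq2 1.42.0 and limma 3.58.1 served as alternatives. The fits were tested on counts simulated from the mean and dispersion of each gene. Those counts held no tissue differences among libraries and no library sets, so they are no check of the fits against such features. Libraries of a group differed by 18.8 to 190 in chi-square per gene, far above sampling noise, and replicate numbers follow the order of deposit. All 31 genes are named; of the other pathway genes, those of lowest p in each role (at most 2), and the receptor genes Vldlr and Lrp8, with some genes of that rule not reported here. The genes, lists and alternatives were chosen with earlier results of these data known. Python 3.11.15 and matplotlib 3.10.9 drew the figures.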

Additional observations from a re-analysis of the deposited data

How the results depend on the processing

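No paired analysis was possible because the replicate numbers only follow the order of deposit. Mylip and Abca1 had an unadjusted p under 0.05 in each of the 18 alternatives, Dhcr7 in 12, Lrp1 in 9 and Abcg1 in 7. The count of genes called was 0 in edgeR, 184 with DESeq2, 2 on log2(TPM + 0.1), 828 without CONT replicate 3 and ET replicate 1 together, and 0 without any single library. Both DESeq2 and the fit without those libraries called Mylip and Abca1, but in that fit group and library set coincide. Of the 31 genes 5 (16.1%, background 8.65%) had an unadjusted p under 0.05 in edgeR. With upper-quartile factors (background 9.4%) and with limma-voom (background 8.12%) it was 3 (9.68%). Without CONT replicate 3 and ET replicate 1 together it was 12 (38.7%, background 27.7%). When each library was left out it was 2 to 9. It was 9 (29%) without ET replicate 1 (background 16.3%) and 3 (9.68%) without CONT replicate 3 (background 11.7%). It was 2 (6.45%) without ET replicate 2 (background 7.31%) or without CONT replicate 1 (background 3.48%). The share was thus below the background without ET replicate 2 or CONT replicate 3, and near it with upper-quartile factors and limma-voom. The median of the 31 genes, 0.06, ran from 0.036 to 0.154 when each library was left out, the highest without CONT replicate 3.

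Library totals and the TPM scales moved the median of all genes by 0.107, 0.131 and 0.167, and the values under them in this paragraph are given beyond that shift. Of 803 single-gene values under alternatives, 748 kept their direction and their side of the threshold, 8 passed it, and 47 in 16 genes changed sign. Without CONT replicate 3 and ET replicate 1 together, the log2 fold change became -0.042 for Acat2, 0.061 for Mvd, 0.052 for Fdps, 0.068 for Cyp51, 0.83 for Hsd17b7, -0.028 for Ebp, 0.12 for Sc5d and -0.16 for Lrp8. With a term for the library sets it became 0.019 for Srebf2, -0.0022 for Hmgcs1, 0.048 for Pmvk and -0.19 for Fdft1. On log2(TPM + 1) it became 0.054 for Srebf2, 0.00076 for Msmo1, 0.035 for Sc5d and 0.0041 for Stard4, and on log2(TPM + 0.1) it became 0.041, 0.014, 0.042 and 0.047 for the same genes. Cyp51 became 0.0056 with RLE factors, 0.0078 with no filter and 0.0040 with DESeq2, and Pmvk 0.012 with library totals only. When each library was left out, the log2 fold change ran from -0.24 to 0.067 for Srebf2, from -0.14 to 0.39 for Acat2, from -0.039 to 0.21 for Hmgcs1, from -0.30 to 0.15 for Pmvk, from -0.55 to 0.022 for Mvd, from -0.36 to 0.093 for Fdps and from -0.24 to 0.61 for Fdft1. It ran from -0.11 to 0.076 for Cyp51, from -0.44 to 0.036 for Tm7sf2, from -0.018 to 0.22 for Nsdhl, from -0.49 to 0.48 for Hsd17b7, from -0.0040 to 0.14 for Ebp, from -0.14 to 0.15 for Sc5d, from -0.45 to 0.0039 for Stard4 and from -0.92 to 1.72 for Lrp8. The cause of these changes was not tested.

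Sqle, the least abundant of the 31 genes, had 11 to 36 expected counts a library. Levels rest on 3 libraries a group whose origin in separate mice is not stated.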

Other observations

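Scd1 and Fasn, the desaturase and synthase of fatty acid synthesis and known targets of LXR and SREBP-1c, were named after their values were seen. The reason was that Scd1 was far higher in 1 library of each group, and Fasn in CONT replicate 3. Scd1 had 91.9, 19.5 and 15.7 CPM in ET replicates 1 to 3, against 23.1, 10.4 and 127 CPM in CONT replicates 1 to 3. Fasn had 36.3, 20.5 and 34.99 CPM in ET, against 20.2, 15.3 and 85.3 CPM in CONT. The summed TPM of 7 adipocyte markers was 114, 1.61 and 1.47 in ET, against 7.52, 0.600 and 28.7 in CONT, with Plin1, Lep, Retn and Ucp1 at 0 in some libraries. Scd1 and the adipocyte sum were both highest within their group in ET replicate 1 and in CONT replicate 3. CONT replicate 3 was above ET replicate 1 in both genes and below it in the adipocyte sum. Fasn was at 36.3 and 34.99 CPM in ET replicates 1 and 3, whose adipocyte sums were 114 and 1.47 TPM. The part of adipocytes in the Scd1 and Fasn values was not tested.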
